A study of Mus musculus with 8 samples.

Results

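The genes described here encode the enzymes of glycolysis and of glycogen synthesis and breakdown, with the proteins that regulate them, in skeletal muscle. They are 32 genes listed by function, and all 32 were found among the 22173 genes of the deposited table and passed the filter on low counts that left 12963 genes for testing. RNA was sequenced from skeletal muscle of C57BL/6 mice made obese by diet and aged 24 weeks. The liraglutide mice received 0.2 mg/kg of liraglutide, an agonist of the GLP-1 receptor, under the skin each day for 9 weeks. The model mice received normal saline in its place, and both groups were obese, so no lean muscle enters the comparison. Each group had 8 mice, 4 of which were sequenced, and every library carries its own animal code. Which muscle was taken is not stated in the sources used here.

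Glycolysis splits glucose into pyruvate and yields ATP without oxygen, and muscle draws on it for fast, forceful contraction. Muscle also stores glucose as glycogen, which glycogen synthase builds from UDP-glucose and glycogen phosphorylase takes apart to glucose 1-phosphate. Insulin favours storage, whereas adrenaline and contraction favour breakdown, and skeletal muscle is the main site where a meal's glucose is laid down as glycogen. Several steps have a muscle-enriched form and a form made in many other tissues, which lets the pair be followed side by side in a piece of muscle that also holds fat, vessels and connective tissue.

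The libraries held 15033631 to 18244579 counts, and all 4 liraglutide libraries were deeper than all 4 model libraries. Muscle transcripts dominated both groups. The creatine kinase gene Ckm averaged 17337 ± 924 FPKM with liraglutide and 14870 ± 82.2 FPKM in the model group (SD, n = 4 each), and none of the 8 muscle fibre markers was at 0. Of these 8, Ckm, Acta1, Mb and Des were called higher and 0 were called lower, with a median log2 fold change of 0.23. All 8 together summed to 90275 to 96112 CPM (counts relative to each library total) with liraglutide and 84110 to 87808 CPM in the model group. The 10 adipocyte markers summed to 949 to 1385 CPM with liraglutide and 1568 to 2455 CPM in the model group, with 7 of the 10 called lower and 0 higher. Epididymis transcripts were also present, summing to 0.452 to 146 CPM with liraglutide and 31.5 to 52.2 CPM in the model group. Of 9 tested epididymis markers 8 were called lower, Teddm1a was at 0 in all 4 liraglutide libraries, and Crisp1 was high in liraglutide 2. Fewer cells of a type and less RNA per cell cannot be told apart in such bulk libraries.

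Of the 16 genes of glycolysis, 8 were called slightly higher in muscle of liraglutide-treated mice and 1 lower. Of the 16 genes of glycogen metabolism, 2 were called higher and 2 lower. Of the 32 genes, 10 were called higher and 3 lower with liraglutide (edgeR adjusted p under 0.05), and 19 were not called. Across all genes tested 10.3% were called, 5.45% higher and 4.83% lower, against 31.2% and 9.38% of the 32. Those called higher were Gpi1, Pfkm, Aldoa, Tpi1, Pgk1, Pgam2, Eno3 and Pkm of glycolysis, and Gaa and Stbd1 of lysosomal glycogen handling. Those called lower were Pgam1, Pygb and Ppp1r3a. The 16 glycolytic genes had a median log2 fold change of 0.18. Beside them, 4 of the 8 muscle fibre markers were called higher, while Ttn had a negative log2 fold change (-0.17) without a call. The part of the muscle fibre markers in the glycolytic rises was not tested. Every change was small: the called rises lay between 1.11-fold (Pfkm) and 1.33-fold (Stbd1), and the called falls lay at 0.722 (Pygb) to 0.85 (Ppp1r3a) of the model level. The median log2 fold change was 0.14 over the 32 genes and -0.012 over all genes tested. After TMM scaling (edgeR's correction for a few abundant genes taking a larger share) all 4 liraglutide values lay above all 4 model values for 14 of the 32 and below them for 3, against 9.58% and 8.69% of all genes. The direction depends on scaling. By library totals alone, 338 genes were called higher and 1241 lower, in place of 707 and 626, and of the 10 members called higher Aldoa, Eno3, Gaa and Stbd1 remained. With quantile normalization or a common FPKM sum the members' median turned to -0.020 and -0.0093, and of the higher calls that of Stbd1 remained.

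The share of genes called differed with how abundant a transcript is. FPKM is the count scaled by gene length and library total. Of the 490 tested genes with a mean of at least 100 FPKM, 240 (49.0%) were called higher and 15 (3.06%) lower, with a median log2 fold change of 0.19. Of the 18 members at that level, 9 were called higher and 0 lower, which is close to the share among equally abundant genes. Of the 14 members below it, Stbd1 was called higher and Pgam1, Pygb and Ppp1r3a lower. In the class of 10 to 100 FPKM, 11.7% of 3232 genes were called higher and 4.33% lower, and in the class of 1 to 10 FPKM 1.26% of 6452 genes were higher and 5.63% lower. This comparison by level was added after the fold changes had been seen.

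**Figure D1:**
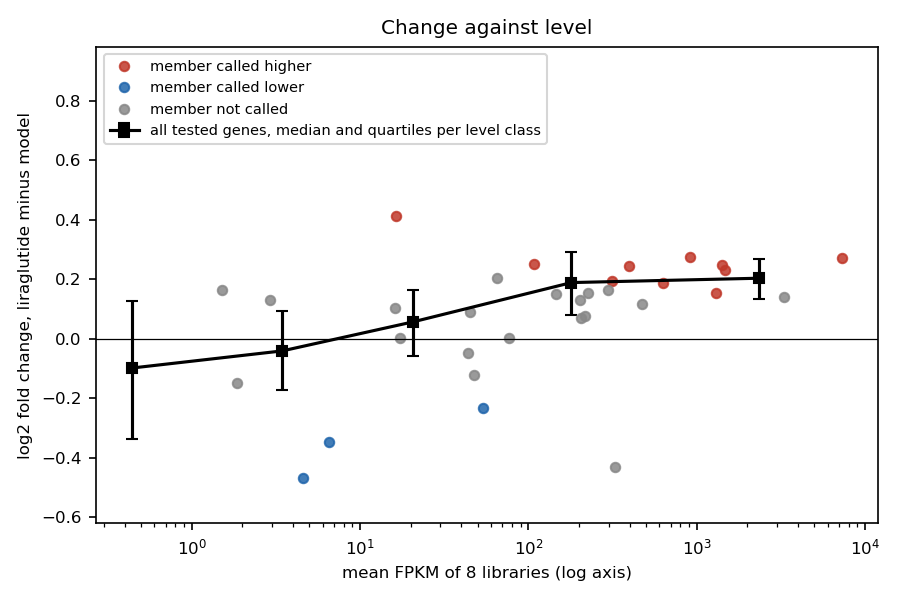
Log2 fold change (liraglutide minus model) against mean FPKM over 8 libraries on a log axis. Black squares are medians of all tested genes in each of 5 level classes with their quartiles, and circles are the 32 genes coloured by call. The median climbs to 0.19 at 100 to 1000 FPKM, where Gpi1, Pgk1, Eno3 and Pkm lie, and 0.20 above that, where Pfkm, Aldoa, Tpi1 and Pgam2 lie, while Stbd1 at 0.41 and the 3 genes called lower stand away from the line.

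The upper part of the pathway prepares glucose for splitting. Hexokinase traps glucose as glucose 6-phosphate, and Hk2, the insulin-responsive form of muscle, had 69.4, 59.1, 71 and 72.5 FPKM in liraglutide libraries 1 to 4, against 73.6, 64.6, 57.2 and 53.4 FPKM in model libraries 1 to 4. The groups overlapped, with model 1 the highest of all 8, and no call was made (log2 fold change 0.21, SE 0.1, adjusted p = 0.236). Hk1, the form of most tissues, stood at 2.99 ± 0.306 FPKM with liraglutide and 2.88 ± 0.24 FPKM in the model group.

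Gpi1, which turns glucose 6-phosphate into fructose 6-phosphate, had 327, 342, 329 and 308 FPKM in liraglutide libraries 1 to 4, against 300.1, 301, 300.5 and 302 FPKM in model libraries 1 to 4. All 4 liraglutide values were above the model values, and the 4 model values lay within a narrow band. Gpi1 rose 1.14-fold (log2 fold change 0.19, SE 0.039, adjusted p = 0.0157), and the call ended without model 1 (adjusted p = 0.0504). With quantile normalization it stood at -0.0059. A near-identical stretch in 1 other gene covers 50.2% of the Gpi1 transcript.

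Pfkm, the muscle phosphofructokinase that commits sugar to glycolysis, had 1294, 1419, 1295 and 1324 FPKM in liraglutide libraries 1 to 4, against 1277, 1306, 1238 and 1234 FPKM in model libraries 1 to 4. These values overlapped between groups when scaled to the library total, while after TMM scaling all liraglutide values were above. Pfkm rose 1.11-fold (log2 fold change 0.15, SE 0.037, adjusted p = 0.0315). The call ended without model 1, model 3 or model 4 (adjusted p up to 0.094), and the direction turned with quantile normalization (log2 fold change -0.041).

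The bifunctional PFKFB enzymes set the level of fructose 2,6-bisphosphate, the activator of phosphofructokinase. None of the 3 was called. Pfkfb3, the inducible form, had 44.7, 40, 14.3 and 69.1 FPKM in liraglutide libraries 1 to 4, against 55.8, 36.6, 28.3 and 62 FPKM in model libraries 1 to 4. Liraglutide 3 was the lowest and liraglutide 4 the highest of all 8 libraries, and the groups overlapped fully (log2 fold change -0.049, SE 0.4, adjusted p = 0.953). Its log2 fold change ran between -0.40 and 0.24 as single libraries were left out. Pfkfb2, the heart form, was scarce but separated, at 1.55 to 1.81 FPKM with liraglutide and 1.93 to 2.08 FPKM in the model group (log2 fold change -0.15, SE 0.064, adjusted p = 0.174). Pfkfb1, the liver and muscle form, overlapped at 14.9 to 17.7 FPKM with liraglutide and 12.7 to 17.9 FPKM in the model group (log2 fold change 0.10, SE 0.11, adjusted p = 0.596).

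Aldolase cuts fructose 1,6-bisphosphate into a pair of triose phosphates, and Aldoa was by far the most abundant of the 32 genes. It had 7819, 8392, 7813 and 7311 FPKM in liraglutide libraries 1 to 4, against 6878, 6623, 6842 and 7019 FPKM in model libraries 1 to 4. Every liraglutide library was above every model library, with liraglutide 2 the highest. After quantile normalization its difference was near 0. Aldoa rose 1.21-fold (log2 fold change 0.27, SE 0.041, adjusted p = 0.00468) and alone took 1.87% to 2.07% of all FPKM with liraglutide and 1.76% to 1.84% in the model group. Tpi1, triose phosphate isomerase, had 1503, 1671, 1401 and 1415 FPKM in liraglutide libraries 1 to 4, against 1367, 1332, 1313 and 1302 FPKM in model libraries 1 to 4. These groups were also apart, and Tpi1 rose 1.19-fold (log2 fold change 0.25, SE 0.051, adjusted p = 0.0159), a call that ended without model 4 (adjusted p = 0.0509). A copy in 1 other gene covers 19.3% of its transcript.

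The lower part of the pathway recovers ATP. Gapdh, which oxidises glyceraldehyde 3-phosphate, had 306, 329, 298 and 286 FPKM in liraglutide libraries 1 to 4, against 299.5, 277, 280.2 and 290.3 FPKM in model libraries 1 to 4. Liraglutide 4 and liraglutide 3 lay within the model range. Gapdh was not called (log2 fold change 0.16, SE 0.048, adjusted p = 0.0602), although it passed in DESeq2 (adjusted p = 0.0297) and without liraglutide 4 (adjusted p = 0.0325). Its level is uncertain: 79 other annotated genes hold stretches at least 150 bases long and at least 95% identical to it, covering 88.0% of the transcript, so reads may have been split or dropped in counting. Pgk1, phosphoglycerate kinase, had 424, 453, 416 and 378 FPKM in liraglutide libraries 1 to 4, against 362, 364, 383 and 379.6 FPKM in model libraries 1 to 4. Only liraglutide 4 fell inside the model range, and Pgk1 rose 1.18-fold (log2 fold change 0.24, SE 0.054, adjusted p = 0.0218). The call ended without model 1, model 2 or model 4 (adjusted p up to 0.0691), and copies in 4 other genes cover 68.8% of its transcript.

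Pgam2, the muscle phosphoglycerate mutase, had 1548, 1683, 1454 and 1543 FPKM in liraglutide libraries 1 to 4, against 1407, 1434, 1423 and 1320 FPKM in model libraries 1 to 4. Its groups were apart and it rose 1.18-fold (log2 fold change 0.23, SE 0.046, adjusted p = 0.0143), a call that held without each library in turn. Correcting for gene length and GC content, the log2 fold change was 0.025 (adjusted p = 0.816). Pgam2 is the shortest of the 32 genes, at 906 bases.

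Eno3, the beta enolase of muscle, had 956, 1066, 924 and 938 FPKM in liraglutide libraries 1 to 4, against 856, 858, 845 and 827 FPKM in model libraries 1 to 4. All liraglutide values were above all model values, and Eno3 rose 1.21-fold (log2 fold change 0.27, SE 0.043, adjusted p = 0.00549). Pkm, pyruvate kinase of muscle, had 674, 724, 605 and 626 FPKM in liraglutide libraries 1 to 4, against 606, 594, 610.5 and 619 FPKM in model libraries 1 to 4. Liraglutide 3 lay inside the model range on this scale, and after TMM scaling the groups were apart. Pkm rose 1.14-fold (log2 fold change 0.19, SE 0.048, adjusted p = 0.0379), but the call ended without liraglutide 1 or any single model library (adjusted p up to 0.0969), and quantile normalization gave -0.0084. A near-identical stretch in 1 other gene covers 65.5% of the Pkm transcript.

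**Figure D2:**
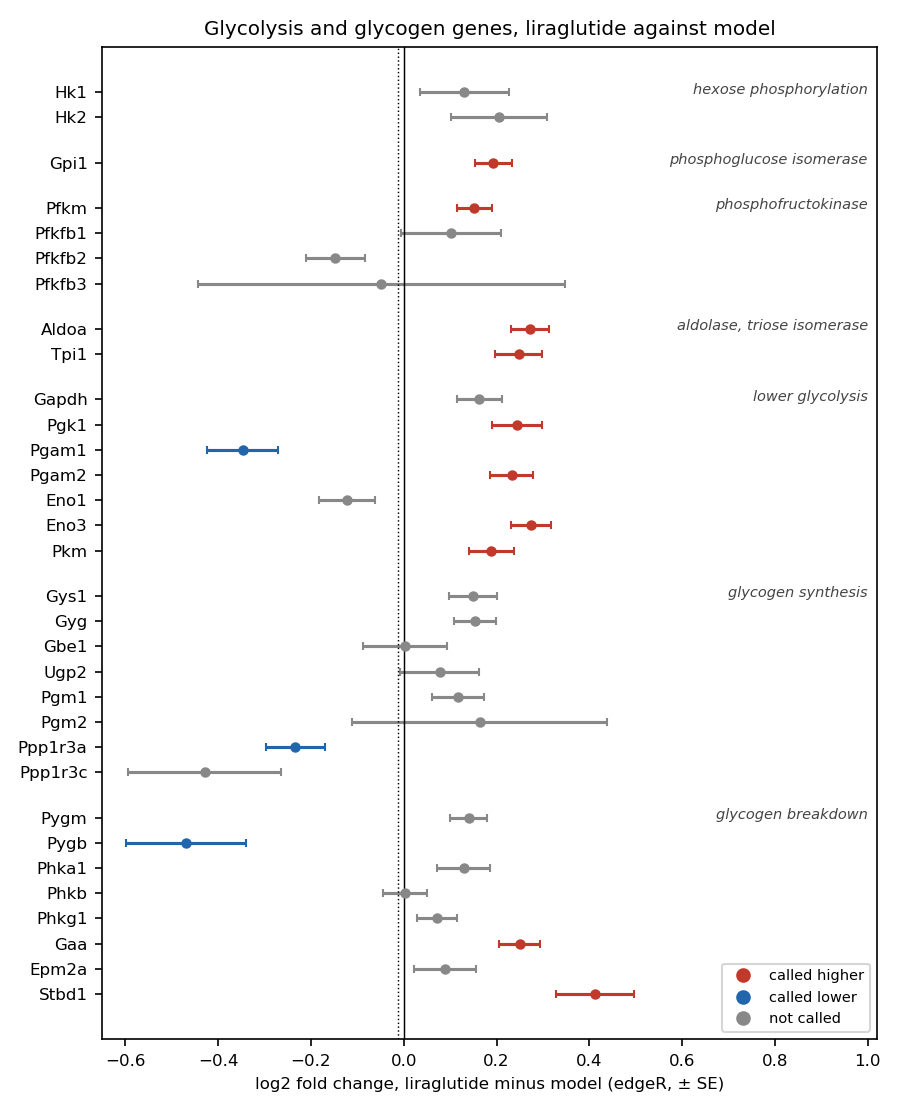
Log2 fold change (liraglutide minus model) with its SE for the 32 genes, in order of pathway step. Red and blue mark genes called higher and lower, grey those not called, and the dotted line is the median of all tested genes at -0.012. The red points of glycolysis lie between 0.15 and 0.27; under quantile normalization those of Gpi1, Pfkm and Pkm fall below 0.

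Pgam1 and Pygb, forms found mainly outside muscle, fell. Pgam1, the mutase of most other tissues, had 5.37, 5.59, 5.52 and 5.89 FPKM in liraglutide libraries 1 to 4, against 7.54, 6.9, 7.62 and 7.95 FPKM in model libraries 1 to 4. All 4 liraglutide values were below all 4 model values, and Pgam1 fell by 0.35 on the log2 scale (SE 0.077, adjusted p = 0.0213). The call ended without liraglutide 1, liraglutide 2, model 1, model 3 or model 4 (adjusted p up to 0.0603), and a copy in 1 other gene covers 43.1% of the transcript. Pygb, the brain form of glycogen phosphorylase, had 3.63, 3.94, 2.94 and 4.44 FPKM in liraglutide libraries 1 to 4, against 6.36, 5.32, 4.57 and 5.56 FPKM in model libraries 1 to 4. It fell by 0.47 on the log2 scale (SE 0.13, adjusted p = 0.0474), with FPKM values apart and TMM-scaled values overlapping. That call ended without each single library other than liraglutide 4 and model 3 (adjusted p up to 0.123). Eno1, the alpha enolase of most tissues, stood at 41.7 to 46.6 FPKM with liraglutide and 47.7 to 56.4 FPKM in the model group and was not called (log2 fold change -0.12, SE 0.061, adjusted p = 0.232). After correction for length and GC it passed as lower (adjusted p = 0.0453), and copies in 3 genes cover 85.6% of its transcript.

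Set side by side, the muscle form took a larger share of these 3 pairs with liraglutide. In each pair the muscle form is also the more abundant gene. Over all tested genes the median log2 fold change was -0.041 in the class of 1 to 10 FPKM. It was 0.057 at 10 to 100 FPKM, 0.19 at 100 to 1000 FPKM and 0.20 above that. The part of transcript level in these shares was not tested. Pgam2 made up 99.62% to 99.67% of the Pgam2 and Pgam1 FPKM with liraglutide and 99.40% to 99.52% in the model group. Eno3 made up 95.4% to 95.8% of the enolase pair with liraglutide and 93.8% to 94.7% in the model group. Pygm made up 99.86% to 99.91% of the phosphorylase pair with liraglutide and 99.80% to 99.86% in the model group. The groups did not overlap for any of the 3 shares, the phosphorylase ranges meeting at their printed edge. The Hk2 share of the hexokinase pair overlapped, at 94.98% to 96.6% with liraglutide and 95.2% to 96.3% in the model group. A share does not change when all genes of a library are scaled by the same factor. Corrections that differ between genes, as for length and GC content, can change it. With that correction the log2 fold change of Pgam2 was 0.025. The adipocyte markers, lower in the liraglutide libraries, moved with these shares. So did the sum of 6 fibroblast markers, at 717 to 1154 CPM with liraglutide and 1188 to 1217 CPM in the model group. Of these 6, 1 (16.7%) was called lower, against 4.83% of all genes tested. The part of the adipocyte and fibroblast markers in the lower Pgam1, Pygb and Eno1 was not tested.

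**Figure D3:**
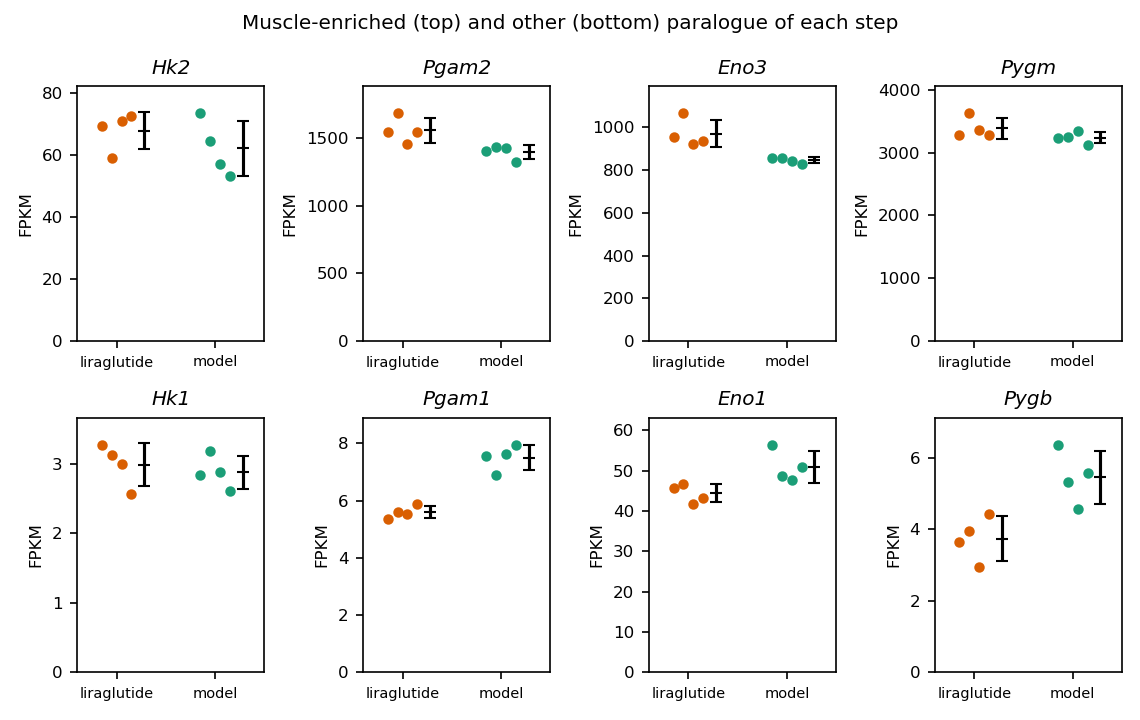
FPKM of the muscle-enriched form (top row) and the other form (bottom row) of hexokinase, phosphoglycerate mutase, enolase and glycogen phosphorylase. Each point is 1 library, 4 liraglutide on the left and 4 model on the right, with mean and SD as bars. Pgam2 and Eno3 are higher and Pgam1, Eno1 and Pygb lower in every liraglutide library, while Hk2 and Hk1 overlap.

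The promoters of the mutase and phosphorylase pairs and of Ppp1r3a are shown because Pgam2 was called higher and Pgam1, Pygb and Ppp1r3a lower; Pygm, which was not called, is the muscle partner of Pygb. Each is the 250 bases before the annotated RefSeq start (GRCm38.p6), 5′ to 3′ on the strand of the gene, and capitals mark ACGTG (the core letters bound by hypoxia-inducible factor, read on both strands, so also CACGT), the E-box CAGCTG and a MEF2-type motif (CTA and TAG with 4 bases between them).
Pgam2, chr11:5803797-5804046, minus strand: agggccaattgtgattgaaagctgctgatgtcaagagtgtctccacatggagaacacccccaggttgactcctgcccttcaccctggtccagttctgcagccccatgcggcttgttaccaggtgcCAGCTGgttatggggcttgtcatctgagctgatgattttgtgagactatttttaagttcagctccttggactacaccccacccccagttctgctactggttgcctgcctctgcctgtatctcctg
Pgam1, chr19:41911621-41911870, plus strand: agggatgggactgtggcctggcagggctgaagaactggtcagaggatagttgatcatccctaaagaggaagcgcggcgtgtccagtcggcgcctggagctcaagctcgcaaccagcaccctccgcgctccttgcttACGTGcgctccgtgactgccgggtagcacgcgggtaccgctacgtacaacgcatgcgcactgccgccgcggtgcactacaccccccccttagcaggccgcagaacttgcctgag
Pygm, chr19:6384158-6384407, plus strand: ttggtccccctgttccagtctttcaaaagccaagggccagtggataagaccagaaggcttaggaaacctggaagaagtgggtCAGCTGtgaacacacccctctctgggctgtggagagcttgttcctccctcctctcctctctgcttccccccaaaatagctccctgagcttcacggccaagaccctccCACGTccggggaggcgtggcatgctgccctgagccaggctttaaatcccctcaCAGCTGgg
Pygb, chr2:150786546-150786795, plus strand: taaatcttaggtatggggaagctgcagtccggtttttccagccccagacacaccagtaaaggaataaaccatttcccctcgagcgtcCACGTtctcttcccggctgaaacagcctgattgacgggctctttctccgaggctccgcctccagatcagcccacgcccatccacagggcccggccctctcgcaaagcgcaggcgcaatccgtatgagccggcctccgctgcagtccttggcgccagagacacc
Ppp1r3a, chr6:14755275-14755524, minus strand: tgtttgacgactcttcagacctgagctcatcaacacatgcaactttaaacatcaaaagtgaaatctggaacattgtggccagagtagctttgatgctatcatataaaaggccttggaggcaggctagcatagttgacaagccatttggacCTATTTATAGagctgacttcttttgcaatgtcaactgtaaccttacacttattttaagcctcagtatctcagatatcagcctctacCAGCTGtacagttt
All 32 genes matched a RefSeq promoter, with 48 starts among them. ACGTG was found upstream of 16 of the 32 genes, against 18.5% of all 27025 genes in the table. CAGCTG was found for 11 of the 32 (34.4%, against 14.7%) and the MEF2-type motif for 2, Phka1 and Ppp1r3a (6.25%, against 3.70%). That pattern allows any 4 bases between CTA and TAG, so it is not a count of MEF2 sites. The Pgam2 window holds CTATTTTTAA, which ends in TAA and was therefore not marked. CACGTG, which contains ACGTG, occurred in 5 of the 32 (15.6%, against 6.86%). The plain letters GGGCGG were found for 19 of the 32 (59.4%, against 35.4%) and TATAAA for 3 (9.38%, against 14.3%). The 27025 genes have 32851 starts among them, and each further start adds a window to a gene. Among the 4 pairs, Pgam2 holds CAGCTG, Pygm holds both CAGCTG and ACGTG, and Pgam1, Pygb and Hk2 hold ACGTG without CAGCTG. Eno3, Eno1 and Hk1 hold neither, so CAGCTG and ACGTG do not separate muscle forms from the others. Of the 10 genes called higher, Gpi1, Pgam2 and Pkm hold CAGCTG. These matches are letters in a window and show no binding.

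Glycogen synthesis had no gene called higher and 1 called lower among 8. Pgm1 interconverts glucose 6-phosphate and glucose 1-phosphate, Ugp2 makes UDP-glucose, Gyg primes the particle, Gys1 lengthens the chains and Gbe1 branches them. Gys1 had 143, 145, 159 and 149 FPKM in liraglutide libraries 1 to 4, against 144, 147, 139.8 and 135 FPKM in model libraries 1 to 4. The liraglutide and model values overlapped in FPKM and were apart after TMM scaling, without a call (log2 fold change 0.15, SE 0.052, adjusted p = 0.103). Gyg had 222, 231, 245 and 229 FPKM in liraglutide libraries 1 to 4, against 219, 219, 216 and 225 FPKM in model libraries 1 to 4. Liraglutide 1 lay within the model range. Gyg was not called in edgeR (log2 fold change 0.15, SE 0.046, adjusted p = 0.0624) and passed in DESeq2 (adjusted p = 0.0361). Pgm1 stood at 478 ± 29.9 FPKM with liraglutide and 465 ± 25.6 FPKM in the model group, Ugp2 at 216 ± 27 FPKM with liraglutide and 216 ± 8.31 FPKM in the model group and Gbe1 at 16.8 ± 1.83 FPKM with liraglutide and 17.6 ± 1.55 FPKM in the model group (SD, n = 4 each). None of these was called (adjusted p = 0.216 for Pgm1, 0.618 for Ugp2 and 0.988 for Gbe1), and the direction of Ugp2 and Gbe1 turned with the scaling. Pgm2, a related gene listed with the synthesis genes, had 2.34, 0.867, 1.33 and 1.69 FPKM in liraglutide libraries 1 to 4, against 1.44, 1.41, 1.22 and 1.79 FPKM in model libraries 1 to 4. It was scarce, with 41 to 106 counts per liraglutide library and 52 to 77 per model library, and liraglutide 1 and liraglutide 2 were the highest and lowest of all 8 (log2 fold change 0.16, SE 0.27, adjusted p = 0.756).

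Targeting subunits bring protein phosphatase 1 to glycogen, where it activates the synthase. Ppp1r3a, the muscle-specific targeting subunit, had 42.9, 49.4, 47.3 and 52.9 FPKM in liraglutide libraries 1 to 4, against 60.2, 62.5, 59.2 and 56.4 FPKM in model libraries 1 to 4. All 4 liraglutide values were below all 4 model values, and Ppp1r3a fell by 0.23 on the log2 scale (SE 0.064, adjusted p = 0.0464). The call ended without each single library other than liraglutide 4 (adjusted p up to 0.123) and under upper quartile or RLE factors, no count filter or a length offset. Correcting for both length and GC gave -0.026. Ppp1r3a has the lowest GC content of the 32 genes, at 36.7%. Ppp1r3c, which targets the phosphatase to glycogen and is known to respond to insulin and fasting in several tissues, had 358, 186, 269.6 and 267 FPKM in liraglutide libraries 1 to 4, against 334, 375, 413 and 411 FPKM in model libraries 1 to 4. Liraglutide 2 was the lowest and liraglutide 1 lay within the model range, and no call was made (log2 fold change -0.43, SE 0.17, adjusted p = 0.131). Without liraglutide 1 Ppp1r3c passed, at a log2 fold change of -0.59 (adjusted p = 0.0365).

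The muscle phosphorylase and its kinase were not called. Pygm, muscle glycogen phosphorylase and the second most abundant of the 32, had 3282, 3628, 3368 and 3277 FPKM in liraglutide libraries 1 to 4, against 3233, 3256, 3346 and 3129 FPKM in model libraries 1 to 4. Liraglutide 2 was the highest, liraglutide 1 and 4 lay within the model range, and the log2 fold change of 0.14 missed the threshold (SE 0.04, adjusted p = 0.0548). Pygm passed in DESeq2 (adjusted p = 0.043) and without liraglutide 4 (adjusted p = 0.0468). The phosphorylase kinase genes, which encode the kinase that switches phosphorylase on, were not called: Phka1 stood at 206 ± 14.3 FPKM with liraglutide and 198 ± 9.01 FPKM in the model group, Phkb at 74.7 ± 3.07 FPKM with liraglutide and 78.6 ± 2.81 FPKM in the model group and Phkg1 at 205 ± 10.3 FPKM with liraglutide and 206 ± 5.73 FPKM in the model group. Exons of Sumf2, Itgb3bp and Ruvbl2 lie on the other strand over Phkg1, Pgm1 and Gys1, and strand use in counting is not stated in the sources used here, so their reads may be shared. Epm2a, the glycogen phosphatase laforin, stood at 45 ± 3.19 FPKM with liraglutide and 44.6 ± 2.38 FPKM in the model group without a call (adjusted p = 0.44).

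Both listed genes of the lysosomal route rose. Stbd1, which binds glycogen and is known to bring it to lysosomes, had 18.2, 21, 18 and 16.1 FPKM in liraglutide libraries 1 to 4, against 13, 14.8, 15 and 15.2 FPKM in model libraries 1 to 4. Every liraglutide library was above every model library, with liraglutide 2 the highest and model 1 the lowest. Stbd1 rose 1.33-fold (log2 fold change 0.41, SE 0.084, adjusted p = 0.0156), the largest rise of the 32 genes. It kept its call in all 23 alternative analyses, at times only just under the threshold (adjusted p up to 0.0494). Gaa, the acid alpha-glucosidase that digests glycogen inside lysosomes, had 112, 119, 118 and 109 FPKM in liraglutide libraries 1 to 4, against 104, 99, 101 and 102 FPKM in model libraries 1 to 4. The groups were apart, with the lowest liraglutide library above the highest model library. Gaa rose 1.19-fold (log2 fold change 0.25, SE 0.044, adjusted p = 0.00898) and kept its call without each library in turn, but not under quantile normalization, a common FPKM sum or the length and GC offset (adjusted p up to 0.0796). Both are expressed in many cell types, and in which cells they rose was not tested.

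**Figure D4:**
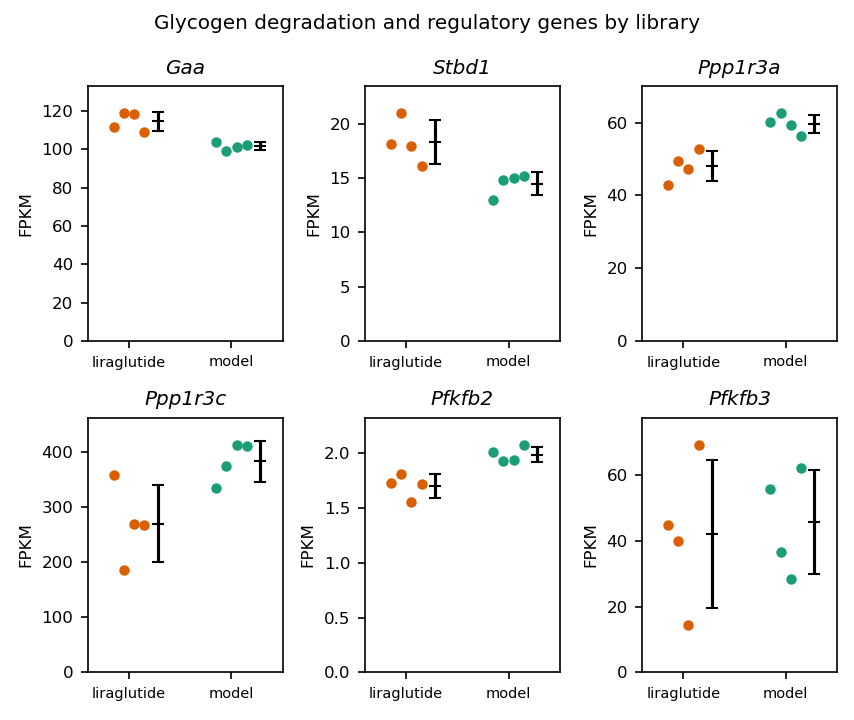
FPKM by library for genes of lysosomal glycogen handling (Gaa, Stbd1), phosphatase targeting (Ppp1r3a, Ppp1r3c) and fructose 2,6-bisphosphate control (Pfkfb2, Pfkfb3). Points are the 4 liraglutide libraries (left) and the 4 model libraries (right), with mean and SD as bars. Gaa and Stbd1 lie higher and Ppp1r3a and Pfkfb2 lower in every liraglutide library, whereas Ppp1r3c and Pfkfb3 overlap.

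Between libraries, the 32 genes did not move evenly. The median deviation from each gene's mean over 8 libraries was 0.057, 0.11, 0.091 and 0.018 on the log2 scale in liraglutide 1 to 4, and -0.079, -0.065, -0.063 and -0.073 in model 1 to 4. Liraglutide 2 carried the highest values of Aldoa, Tpi1, Pgk1, Pgam2, Eno3, Pkm and Stbd1, and liraglutide 4 lay nearest to the model group. The 13 genes of enzymes that carry out the glycolytic steps took 3.654% to 4.002% of all FPKM with liraglutide and 3.515% to 3.547% in the model group. Aldoa is the larger part of that sum: the other 12 genes took 1.737% to 1.928% with liraglutide and 1.675% to 1.753% in the model group, and these ranges overlapped. The 8 glycogen synthesis genes took 0.334% to 0.374% with liraglutide and 0.373% to 0.410% in the model group, and the 8 breakdown genes 0.993% to 1.07% with liraglutide and 0.990% to 1.06% in the model group. Both sums overlapped between groups. The synthesis sum includes Ppp1r3c, which was not called and averaged 270 FPKM with liraglutide and 383.5 FPKM in the model group. Of the 8 synthesis genes 6 had a positive log2 fold change.

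**Figure D5:**
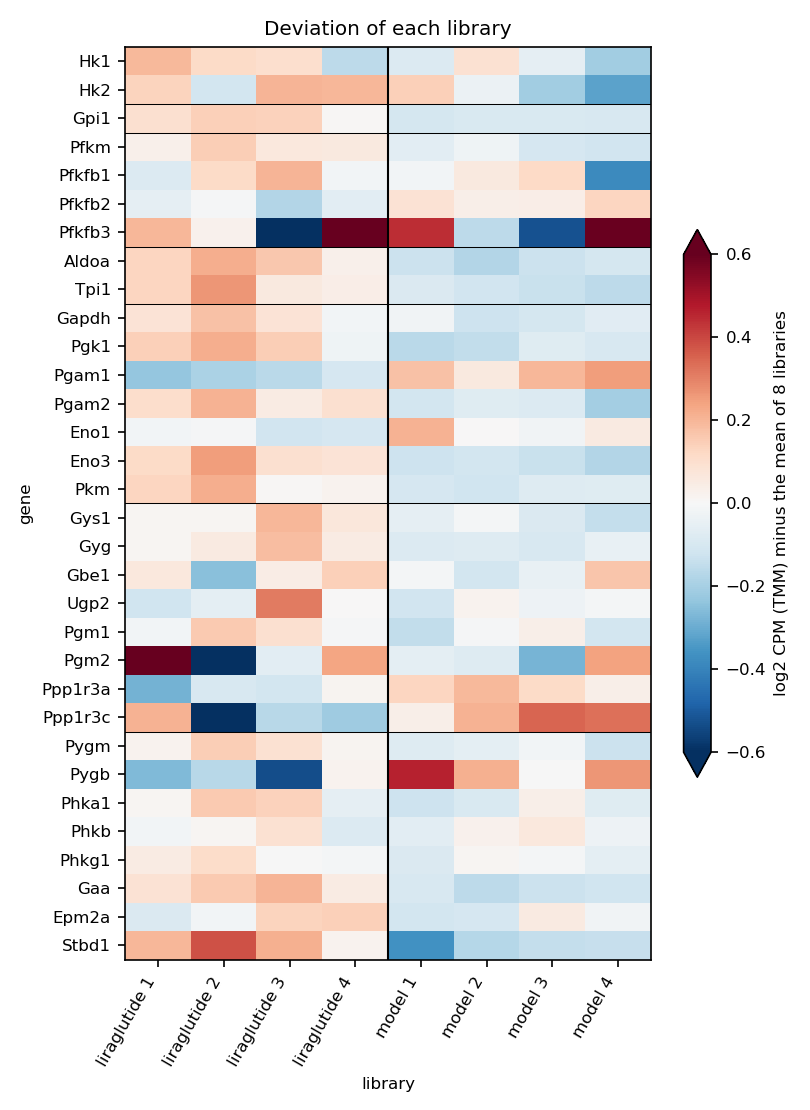
Deviation of log2 CPM (TMM-scaled) from the mean of 8 libraries for each gene (rows, in pathway order) and library (columns, liraglutide left of model), with colours ending at 0.6 in either direction. The glycolytic rows are mostly red on the left and blue on the right, Pgam1 and Pygb are the reverse, and Pfkfb3, Pgm2 and Ppp1r3c vary widely within a group. The scaling is TMM; quantile normalization turns the median over the 32 genes.

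Other genes of the same pathways were taken from a separate list. Of 38 listed, 30 were tested, and their median log2 fold change was 0.083. Of these 30, 3 were called higher and 1 lower, against 5.45% and 4.83% of all genes tested. These calls depended on the processing. With library totals alone or in limma on log2(FPKM + 1) 0 were higher and 3 lower, with a common FPKM sum 0 and 6, with quantile normalization 0 and 1, and in DESeq2 5 and 2. Without model 1 or without model 2, edgeR called 0 in either direction. The lactate dehydrogenase genes Ldha and Ldhb rose 1.14-fold and 1.29-fold, Ldha with 562, 594, 554 and 527 FPKM in liraglutide libraries 1 to 4, against 524, 499, 521 and 528 FPKM in model libraries 1 to 4. Liraglutide 4 lay within the model range (log2 fold change 0.19, SE 0.04, adjusted p = 0.0198). Ldhb had 152, 143, 176 and 173 FPKM in liraglutide libraries 1 to 4, against 126, 122, 149.7 and 130.1 FPKM in model libraries 1 to 4, with model 3 above liraglutide 2 (log2 fold change 0.37, SE 0.089, adjusted p = 0.0312). Calm3, a calmodulin gene whose protein is also a subunit of phosphorylase kinase, rose 1.15-fold (adjusted p = 0.0414). Ldha, Ldhb and Calm3 each averaged at least 100 FPKM, a level at which 49.0% of tested genes were called higher and 3.06% lower. The part of transcript level in their rises was not tested. Phka2, the liver form of a phosphorylase kinase subunit, fell by 0.36 on the log2 scale (adjusted p = 0.0478). In the table's own KEGG annotation, 52 genes of the glycolysis and gluconeogenesis term were tested. Of these, 10 (19.2%) were called higher and 1 (1.92%) lower, against 5.45% and 4.83% of all genes tested. The term shares 15 genes with the 32, so its calls overlap with those above. Of the starch and sucrose term 25 genes were tested, with 2 (8.0%) called higher and 3 (12.0%) lower. That term shares 12 genes with the 32.

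Fibre type markers stood beside these values as follows. Of 14 fast fibre genes 5 (35.7%) were called higher and 0 lower, with summed levels of 197943 to 217937 CPM with liraglutide and 200756 to 205498 CPM in the model group. All 14 average at least 100 FPKM, a level at which 49.0% of tested genes were called higher and 3.06% lower. Myh4, the main fast myosin heavy chain, averaged 10414 ± 493 FPKM with liraglutide and 10995 ± 311 FPKM in the model group. With TMM scaling its log2 fold change was -0.0031, and it was not called (edgeR adjusted p = 0.968). Of 10 slow fibre genes none was called in either direction, and their sums overlapped at 3544 to 5922 CPM with liraglutide and 4000 to 5306 CPM in the model group. Liraglutide 2 had the highest fast and lowest slow sum as well as the highest summed share of the 13 glycolytic enzymes, with and without Aldoa, and the part of fibre composition in the glycolytic rise was not tested.

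The libraries also differed by gene length and GC content. Over all 12963 tested genes, a library's deviation correlated with GC content at 0.128 to 0.158 for liraglutide and at -0.206 to -0.101 for the model group. With log gene length the correlation ran at -0.161 to 0.016 for liraglutide and at 0.025 to 0.150 for the model group. Genes are not independent replicates, and these values are descriptive. The 32 genes had a median GC content of 52.2%, against 50.2% for all tested genes. Corrected for both, Aldoa, Eno3 and Stbd1 kept their higher calls, out of 1.28% of all genes called higher in that fit.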

How the data were processed

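Poly(A) RNA of 8 skeletal muscle samples was sequenced from stranded libraries, according to the labels' protocols. The deposited table holds a raw count and an FPKM value for each gene and library, per the file headers. Tools named without a version, per the submitters' processing notes, are HISAT2, HTSeq, Cufflinks, Trimmomatic and DESeq. The same notes name the human build GRCh38, although the genes are mouse genes, so no coordinates were taken from the files. The authors' FPKM equalled count over library total and a whole-number gene length for 17484 of 17484 genes with a count, within 0.01 base.

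Counts were tested with edgeR 4.0.16 (R 4.3.3) by quasi-likelihood, with TMM scaling and filterByExpr at a minimum count of 10. P-values were adjusted by Benjamini-Hochberg over all 12963 genes; genes under 0.05 are those called. Fold changes are liraglutide over model. FPKM values are scaled to the library total only and so show smaller rises than the TMM-scaled fold changes. Errors are SD over 4 animals unless given as SE. Alternatives were other scalings and filters, DESeq2 1.42.0, limma 3.58.1 on log2(FPKM + 1) and log2(FPKM + 0.1), loess offsets for gene length and GC content (span 0.5), a replicate block and omission of libraries. Copies were sought by BLAST among GENCODE transcripts, and the fits were tested on simulated data. The 32 genes, the lists and the tests were chosen with earlier results of these data known. By rule, values in each library are given for called genes and for the 5 uncalled genes with the largest change (Ppp1r3c, Hk2, Pgm2, Gapdh and Gyg). Pfkfb3, Gys1, Pygm, Fbp1, Fbp2, Gys2, Gsk3a, Gsk3b and the level classes were chosen after their values were seen.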

Additional observations from a re-analysis of the deposited data

How the results depend on the processing

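The count of the 32 genes called higher was 10 in edgeR, and it was 4 with library totals alone and in limma with either pseudocount, 1 with quantile normalization or a common FPKM sum, 3 with the offset for length and GC, 6 without liraglutide 2 and model 3 together, and 6 to 12 without single libraries. The count called lower was 3, and it was 1 with upper quartile factors, no count filter or the length offset, 6 with a common FPKM sum, 0 without liraglutide 2 and model 3 together, and 0 to 3 without single libraries. Over all genes 1333 were called, against 776 with quantile normalization, 2334 with a common FPKM sum, 773 with the length offset, 447 with that for length and GC, 650 with the block and length offset, 697 without liraglutide 2 and model 3 together, and 615 to 1231 without single libraries. The median of the 32 turned to -0.02 with quantile normalization and to -0.0093 with a common FPKM sum. Stbd1 kept its call in all 23 alternatives (adjusted p up to 0.0494). The causes were not tested. With library totals alone, the turned log2 fold changes were Gbe1 at -0.0744, Ugp2 at -0.0009, Phkb at -0.0739 and Phkg1 at -0.0045. With a minimum count of 50, the turned log2 fold changes were Gbe1 at -0.0039 and Phkb at -0.0039. In limma on log2(FPKM + 1), the turned log2 fold changes were Gbe1 at -0.0718, Ugp2 at -0.0075, Phkb at -0.0727 and Phkg1 at -0.0049. In limma on log2(FPKM + 0.1), the turned log2 fold changes were Gbe1 at -0.0757, Ugp2 at -0.0076, Phkb at -0.0736 and Phkg1 at -0.005. After quantile normalization, the turned log2 fold changes were Gpi1 at -0.0059, Pfkm at -0.0414, Aldoa at -0.0, Gapdh at -0.0336, Pkm at -0.0084, Gys1 at -0.0057, Gyg at -0.0178, Gbe1 at -0.0255, Ugp2 at -0.0911, Pgm1 at -0.1133, Pygm at -0.0223, Phka1 at -0.041, Phkb at -0.1046 and Phkg1 at -0.0995. After scaling to a common FPKM sum, the turned log2 fold changes were Hk1 at -0.0085, Pfkfb1 at -0.028, Gbe1 at -0.1317, Ugp2 at -0.0709, Pgm1 at -0.0231, Pgm2 at -0.01, Pygm at -0.0003, Phka1 at -0.0118, Phkb at -0.1355, Phkg1 at -0.0682 and Epm2a at -0.0505. Under the length offset, the turned log2 fold changes were Pfkfb3 at 0.0193 and Epm2a at -0.0448. Under the offset for length and GC, the turned log2 fold change was Epm2a at -0.2065. Under the block with the length offset, the turned log2 fold changes were Gbe1 at -0.0034 and Epm2a at -0.047. Without single libraries the genes that turned ran over Gbe1 -0.0447 to 0.0884, Pgm2 -0.0969 to 0.3744, Pfkfb3 -0.3961 to 0.2418, Ugp2 -0.0168 to 0.1304 and Phkb -0.0199 to 0.0305. With the replicate block 1035 genes were called, with 8 of the 32 higher and 2 lower; the calls of Pfkm, Pkm and Ppp1r3a ended. Deviations of same-numbered libraries correlated at 0.149, -0.027, 0.143 and 0.065. Liraglutide 1 and liraglutide 3 correlated best with the model library of their own number. Liraglutide 2 correlated best with model 3 (0.14) and liraglutide 4 with model 1 (0.085). These values do not settle whether the numbers mark pairs. Depth limits Pgm2 most, with 41 to 106 counts in a liraglutide library and 52 to 77 in a model library.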

Other observations

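Fbp1, the gluconeogenic fructose bisphosphatase of liver and kidney, had 1, 1, 2 and 2 counts with liraglutide, against 2, 2, 91 and 1 in the model group, and did not pass the filter on low counts. Model 3 held most of these counts. The muscle bisphosphatase gene Fbp2 stood at 72.7 ± 11 FPKM with liraglutide and 62.1 ± 7.87 FPKM in the model group (SD, n = 4 each) and was not called (edgeR adjusted p = 0.143).

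Gys2, the liver glycogen synthase, had 15, 19, 2 and 1 counts in liraglutide 1 to 4, against 37, 21, 29 and 26 counts in model 1 to 4. The groups did not overlap, and the gene was not called (edgeR adjusted p = 0.1003). Of the kinases that phosphorylate glycogen synthase, Gsk3a stood at 55.5 ± 3.08 FPKM with liraglutide and 51.6 ± 1.46 FPKM in the model group (edgeR adjusted p = 0.0522), and Gsk3b at 11.1 ± 0.712 FPKM with liraglutide and 13.6 ± 0.69 FPKM in the model group (edgeR adjusted p = 0.0629). The ratio of Gys1 to Pygm FPKM overlapped between groups, at 0.0399 to 0.0473 with liraglutide and 0.0418 to 0.0453 in the model group.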
